A study of Mus musculus with 21 samples.

Results

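The NRF2 antioxidant genes described here are 10 genes: Nfe2l2, Nqo1, Gclc, Gclm, Hmox1, Srxn1, Txnrd1, Slc7a11, G6pdx and Cat. They were chosen by name as textbook targets of the transcription factor NRF2, with its own gene Nfe2l2 and the neighbouring antioxidant gene Cat. Each of the 10 symbols matched 1 row, under the same gene identifier, in each of the 3 tables of the series, which hold 54532 genes for hepatocytes, 54532 genes for livers given carbon tetrachloride (CCl4) or oil and 34280 genes for livers given thioacetamide (TAA). The rule uses gene names alone.

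RNA-seq was run on 21 mouse libraries, with 3 libraries in each of 7 groups. Primary hepatocytes of wild-type mice received lipopolysaccharide (LPS, 1 µg/mL, 6 h) and nigericin (10 µM, 30 min) after 2 h with the NLRP3 inhibitor MCC950 (10 µM), and their reference cultures received LPS and nigericin alone. Whole livers came from mice labelled Sting knockout and given CCl4 by intraperitoneal injection, from wild-type mice given CCl4, and from wild-type mice given oil. Other whole livers came from mice with Nlrp3 deleted in hepatocytes and given TAA, and from wild-type mice given TAA. CCl4 and oil were injected for 6 weeks by the sample labels, although the design text puts CCl4 at 8 weeks, and TAA was injected for 8 weeks. CCl4 and TAA are hepatotoxins whose repeated injection scars the liver. The labels name neither the Sting allele nor the Cre line behind the Nlrp3 deletion, and they do not say whether replicates are separate animals or cultures, so the p-values measure the spread between these libraries only. All hepatocyte cultures were stimulated and all TAA livers were injured, so the effects of LPS with nigericin and of TAA themselves were not compared here.

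In unstressed cells the adaptor KEAP1 holds NRF2 for degradation by the proteasome. Oxidants and electrophiles modify KEAP1, NRF2 then accumulates in the nucleus, pairs with a small MAF protein and binds antioxidant response elements beside its target genes, where the repressor BACH1 competes with it. NRF2 is regulated largely through protein stability, so the RNA of Nfe2l2 need not follow NRF2 activity. The targets act in consecutive steps: Slc7a11 encodes the cystine importer, Gclc and Gclm the catalytic and modifier subunits of the enzyme that starts glutathione synthesis, and G6pdx the enzyme that feeds the pentose phosphate pathway and supplies NADPH. Srxn1 encodes sulfiredoxin, which restores over-oxidized peroxiredoxins, Txnrd1 encodes cytosolic thioredoxin reductase, Nqo1 a quinone reductase and Hmox1 the inducible heme oxygenase, which opens the heme ring and is abundant in macrophages that clear red cells. Cat encodes catalase, the peroxisomal enzyme that breaks down hydrogen peroxide and is very abundant in hepatocytes.

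The core letters of the antioxidant response element, TGACNNNGC, were searched on both strands of the RefSeq promoter windows (GRCm38.p6, 250 bases before and 50 bases after a gene's start, 300 bases each). The letters TGAGTCA, which mark the AP-1 element and can lie inside TGACNNNGC on the opposite strand, were added to the search afterwards, and no match of one overlapped a match of the other in these windows. Windows were present for 8 of the 10 genes, as 10 windows in all, and Hmox1 and Gclc had none in the table. TGACNNNGC was found for Nfe2l2, Gclm, Srxn1, Txnrd1 and G6pdx, that is for 5 genes, in 1 window each of the 10 windows. The share over all genes was 12.4% of 32851 windows. Txnrd1 had 3 windows, and a gene with more windows has more chances to match. TGAGTCA was found for 1 gene, Srxn1, which held it at positions −102 to −96 and −45 to −39 from the start, beside 5.2% of all windows. The Srxn1 window also held TGACNNNGC on the opposite strand at positions 29 to 37, and the Gclm window held it on the opposite strand at positions −134 to −126. The windows of Nqo1, Slc7a11 and Cat held neither set of letters, which says only that these letters are not in these 300 bases. A match is a description and not a binding site. The 3 windows below are printed because Srxn1 holds the most matches, Gclm is a glutathione gene with a match, and Cat, whose RNA moved furthest downward under CCl4, holds none. They lie at chr2:152105274-152105573 (plus strand), chr3:122245307-122245606 (plus strand) and chr2:103485104-103485403 (minus strand) of GRCm38.p6, run 5′ to 3′ in the direction of the gene, and have the matched letters in capitals.
Srxn1: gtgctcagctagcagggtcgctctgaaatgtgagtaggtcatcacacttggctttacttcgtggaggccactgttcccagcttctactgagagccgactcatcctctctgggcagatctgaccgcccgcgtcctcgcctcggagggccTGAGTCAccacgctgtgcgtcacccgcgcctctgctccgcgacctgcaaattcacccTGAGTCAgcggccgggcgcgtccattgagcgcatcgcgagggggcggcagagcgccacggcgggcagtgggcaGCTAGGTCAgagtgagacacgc
Gclm: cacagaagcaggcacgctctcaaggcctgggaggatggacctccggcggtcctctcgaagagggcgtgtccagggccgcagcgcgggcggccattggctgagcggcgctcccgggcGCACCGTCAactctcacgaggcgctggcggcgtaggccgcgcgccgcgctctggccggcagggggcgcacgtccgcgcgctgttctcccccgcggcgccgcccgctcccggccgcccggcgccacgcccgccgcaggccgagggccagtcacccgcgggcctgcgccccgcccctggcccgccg
Cat: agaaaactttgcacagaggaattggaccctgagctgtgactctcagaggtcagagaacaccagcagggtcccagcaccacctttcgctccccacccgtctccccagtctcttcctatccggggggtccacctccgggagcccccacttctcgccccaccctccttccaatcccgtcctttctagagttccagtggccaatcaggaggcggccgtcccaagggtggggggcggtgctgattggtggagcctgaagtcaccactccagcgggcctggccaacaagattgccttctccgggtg

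Each hepatocyte library held 14883710 to 17157586 reads and each CCl4 or oil library held 14353483 to 16684832 reads, both recovered from the deposited FPKM (fragment counts scaled to gene length and library size), and each TAA library held 32096879 to 68913793 counts. Sting1 was at 3.42, 1.98 and 5.28 FPKM in the libraries labelled Sting knockout, against 6.10, 5.15 and 4.74 FPKM in the wild-type CCl4 libraries (exact two-sided permutation p = 0.3, where 3 against 3 cannot go below 0.1). These titles also carry codes that begin with SWT, so this group is called labelled Sting knockout throughout. Nlrp3 was at 0.08, 0.37 and 0.25 FPKM in the livers with the deletion, against 0.15, 0.11 and 0.17 FPKM in wild-type TAA livers (exact two-sided permutation p = 0.4). These values rest on 23, 105 and 83 counts with the deletion and on 36, 24 and 28 counts in wild type. Cells other than hepatocytes also contribute Nlrp3 RNA. Replicate 2 of the libraries labelled Sting knockout stood apart, with a summed FPKM over 9 hepatocyte markers of 96623 where the group's lowest library had 39258. Its FPKM summed over all genes was also the highest of the group, at 571737, against 325463 in that lowest library. In the hepatocyte cultures these 9 markers summed to 38644 to 41670 FPKM with MCC950 and 38138 to 44176 FPKM without it, and the stellate cell markers Col1a1 and Acta2 and the macrophage marker Trem2 were listed at 0 in all 6 cultures. Of the 10 stellate and myofibroblast markers, 2 averaged at least 1 FPKM over the cultures, Reln and Timp1. Reln was at 1.36 ± 0.15 FPKM with MCC950 and 1.32 ± 0.09 FPKM without it (SD, n = 3 each). Timp1 was at 0.84 ± 0.16 FPKM with MCC950 and 1.48 ± 0.89 FPKM without it. The 10 markers summed to 2.06 to 2.46 FPKM with MCC950 and 2.22 to 4.14 FPKM without it. Of the 14 macrophage markers, 3 averaged at least 1 FPKM over the cultures. Among them was Cd68, at 31.1 ± 3.94 FPKM with MCC950 and 30.9 ± 3.62 FPKM without it (SD, n = 3 each). Another was Spp1, also listed as a cholangiocyte marker, at 56.4 ± 4.51 FPKM with MCC950 and 50.4 ± 6.82 FPKM without it. Adgre1, Csf1r and Clec4f of the same list were at 0.0752, 0.107 and 0.0985 FPKM with MCC950, against 0.0508, 0.0558 and 0.00827 FPKM without it. The 14 markers summed to 81.6 to 98.1 FPKM with MCC950 and 78.6 to 96.4 FPKM without it.

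In wild-type livers given CCl4, Hmox1 rose and Cat fell against oil, and the other 7 members tested did not pass. Slc7a11 averaged below 1 FPKM over the table and did not enter the main test. CCl4 against oil asks what the injury model itself changes. In whole liver a smaller number of cells of a type and less RNA in each such cell cannot be told apart. Of the 9 members with a mean of at least 1 FPKM, 1 was called higher and 1 lower at an adjusted p under 0.05, and 7 were not called. Over all 11511 genes tested, 9.19% were called higher and 6.15% lower. The median log2 fold change of the tested members was 0.44, beside −0.08 for all genes tested. FPKM of the groups did not overlap for 6 of the 9 members, 3 higher and 3 lower under CCl4, beside 38.1% of all genes tested.

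Hmox1 (chromosome 8, 75093621 to 75100589, mm10) was at 119, 58.3 and 35.8 FPKM in wild-type CCl4 livers, against 15.3, 15.2 and 9.95 FPKM in the oil livers. Every CCl4 library lay above every oil library, and the CCl4 libraries differed among themselves more than the oil libraries did. The group means were 70.9 ± 42.9 and 13.5 ± 3.09 FPKM (SD, n = 3 each), a log2 fold change of 2.16 ± 0.41 (SE) on the log2(FPKM + 1) scale, which is 4.48-fold (limma adjusted p = 0.0057). The call held in 20 of 20 alternative settings, with adjusted p between 0.000199 and 0.0326.

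Cat (chromosome 2, 103453849 to 103485160) was at 587, 521 and 366 FPKM in wild-type CCl4 livers, against 1444, 1398 and 1665 FPKM in the oil livers. All 3 CCl4 libraries were far below all 3 oil libraries. The group means were 491 ± 113 and 1503 ± 143 FPKM (SD, n = 3 each), a log2 fold change of −1.63 ± 0.31 (SE, limma adjusted p = 0.00555). The call held in 19 of 20 alternative settings and ended under quantile normalization, where the log2 fold change was −0.73 (adjusted p = 0.124; range over the alternatives 0.000242 to 0.124).

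The 2 subunit genes of glutathione synthesis had lower values under CCl4 that missed the threshold. Gclc (chromosome 9, 77754535 to 77794485) was at 77.7, 67.8 and 78.6 FPKM in wild-type CCl4 livers, against 126, 135 and 150 FPKM in the oil livers. Gclm (chromosome 3, 122245557 to 122270732) was at 37.6, 24.0 and 31.3 FPKM in wild-type CCl4 livers, against 47.2, 49.1 and 74.7 FPKM in the oil livers. For both genes the groups did not overlap. The log2 fold changes were −0.86 ± 0.27 for Gclc (SE, limma adjusted p = 0.0568) and −0.85 ± 0.28 for Gclm (SE, adjusted p = 0.0643). Gclc was called lower in 6 of 20 alternatives (adjusted p from 0.00147 to 0.577), among them the replicate block, and Gclm in 4 of 20 (adjusted p from 0.00797 to 0.269).

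Slc7a11 (chromosome 3, 49892526 to 50443614), the cystine importer, was nearly absent from oil livers and present at a low level in injured ones. It was at 0.379, 0.587 and 1.14 FPKM in wild-type CCl4 livers, against 0.00472, 0.00549 and 0 FPKM in the oil livers. These values rest on 96, 156 and 295 recovered reads in wild-type CCl4 livers and on 1, 1 and 0 reads in the oil livers. The livers labelled Sting knockout had 0.470, 0.566 and 0.776 FPKM, from 113, 102 and 209 reads. All 6 CCl4 libraries lay above all 3 oil libraries. Summed over the 3 libraries, there were 547 reads in wild-type CCl4, 424 in the group labelled Sting knockout and 2 in oil. Each sum was divided by the library scaling that the FPKM imply, since the groups differ in it. The ratio of these scaled rates to oil was 191 for wild-type CCl4 (exact 95% interval 52.6 to 1580) and 167 for the libraries labelled Sting knockout (interval 45.9 to 1382), intervals that cover counting error only. Its mean over the table was below 1 FPKM, so it did not enter the main test. With edgeR on the recovered reads it was called higher in wild-type CCl4 livers (adjusted p = 6e-05) and in the livers labelled Sting knockout (adjusted p = 8.31e-05). In the limma fit with no filter the adjusted p was 0.0356 for wild-type CCl4 and 0.0556 for the livers labelled Sting knockout.

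Srxn1 and G6pdx had higher values under CCl4 that also missed the threshold. Srxn1 (chromosome 2, 152105516 to 152111376) was at 50.8, 27.5 and 26.6 FPKM in wild-type CCl4 livers, against 17.3, 20.3 and 18.03 FPKM in the oil livers (log2 fold change 0.82 ± 0.28, SE, limma adjusted p = 0.0792). G6pdx (chromosome X, 74409483 to 74429194) was at 9.47, 5.82 and 6.74 FPKM in wild-type CCl4 livers, against 4.46, 3.60 and 1.88 FPKM in the oil livers (0.98 ± 0.34, adjusted p = 0.0842). Neither gene's groups overlapped, and for both the highest value was that of wild-type CCl4 replicate 1, which also had the highest Hmox1. Over the alternatives Srxn1 was called in 3 of 20 and G6pdx in 4 of 20.

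Nfe2l2, Nqo1 and Txnrd1 overlapped between the groups. Nfe2l2 (chromosome 2, 75675513 to 75704641), the gene of NRF2 itself, was at 30.9, 20.5 and 24.8 FPKM in wild-type CCl4 livers, against 17.8, 15.2 and 22.1 FPKM in the oil livers (log2 fold change 0.44 ± 0.25, SE, limma adjusted p = 0.278). Nqo1 (chromosome 8, 107388225 to 107403206) was at 14.8, 2.83 and 9.94 FPKM in wild-type CCl4 livers, against 4.10, 5.86 and 5.79 FPKM in the oil livers (0.49 ± 0.44, adjusted p = 0.528). The wild-type CCl4 libraries of Nqo1 lay both above and below the oil range, and without replicate 2, the low library, Nqo1 was called higher (adjusted p = 0.0414). Txnrd1 (chromosome 10, 82833951 to 82897712) was at 37.3, 18.7 and 23.3 FPKM in wild-type CCl4 livers, against 28.7, 30.7 and 30.3 FPKM in the oil livers (−0.23 ± 0.30, adjusted p = 0.689).

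**Figure D1:**
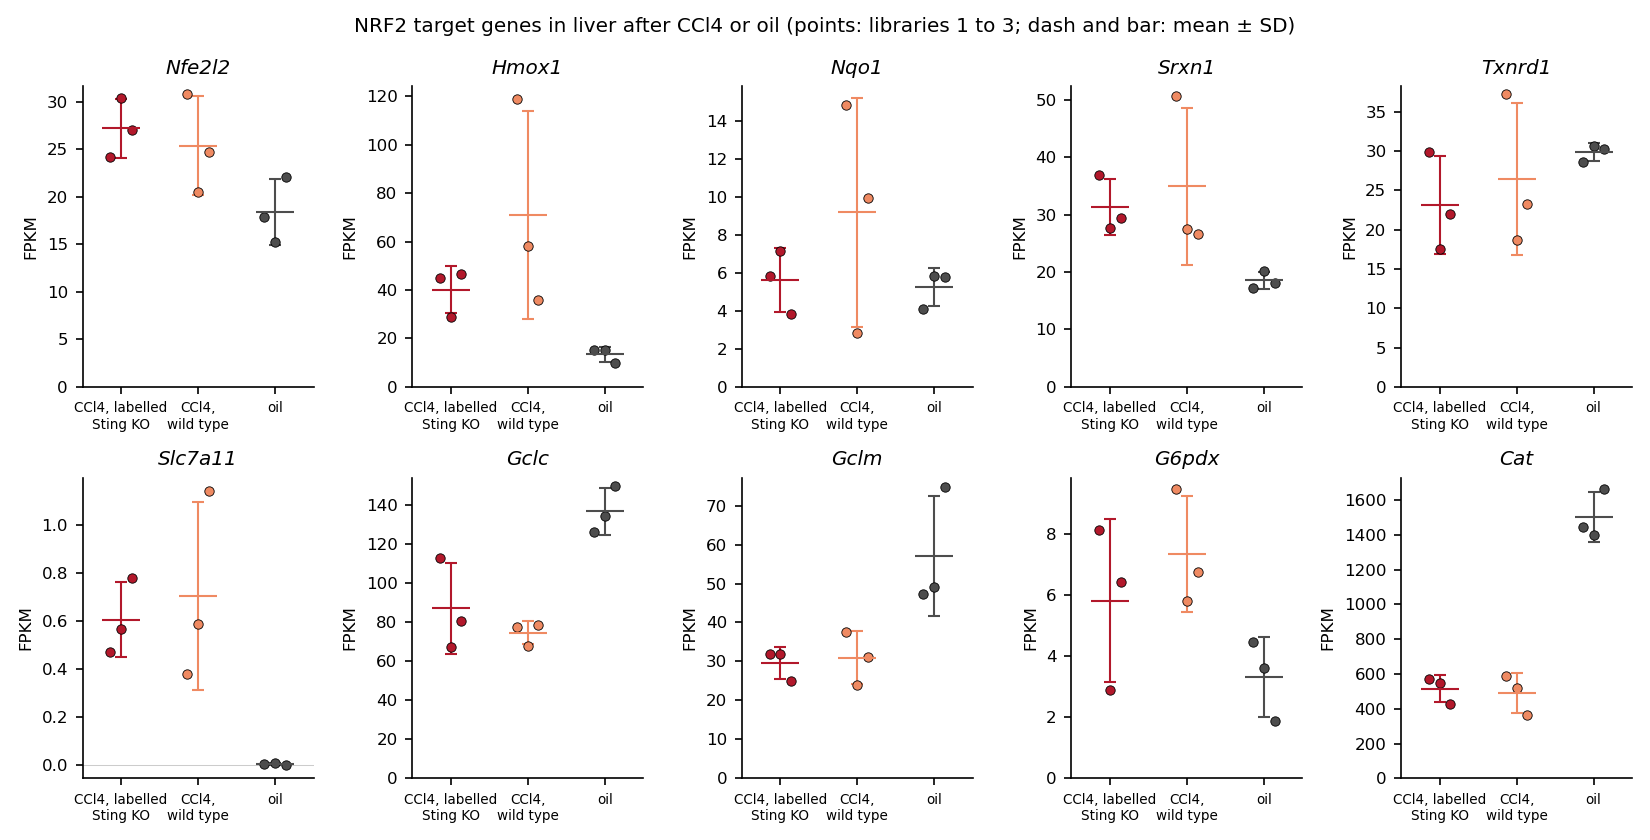
FPKM (vertical axes, linear, from 0 or just below) of the 10 genes in livers labelled Sting knockout and given CCl4, in wild-type livers given CCl4 and in oil livers, 3 libraries each, with the mean and SD as a dash and bar. Hmox1, Srxn1 and Slc7a11 lie above the oil libraries and Gclc, Gclm and Cat below them in all 6 CCl4 libraries.

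The number of members called moved with the settings of the wild-type CCl4 comparison, and so did the calls over all genes, which were 1766 of 11511 in the fit given above. With edgeR on recovered reads, which called 2790 of 14894 genes, 3 members were called higher (Hmox1, Srxn1 and Slc7a11) and 3 lower (Gclc, Gclm and Cat). With the replicate number as a block, which called 2227 of 11511 genes, 2 were called higher (Hmox1 and G6pdx) and 2 lower (Gclc and Cat), with an adjusted p of 0.0420 for G6pdx and 0.0443 for Gclc. With replicate 2 of the group labelled Sting knockout left out of the shared fit, an alternative chosen after seeing the data that called 2472 of 11499 genes, 2 were called higher (Hmox1 and G6pdx) and 3 lower (Gclc, Gclm and Cat).

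The rest of the pathway was followed in lists of related genes, and few of their members passed. None of 11 regulators tested (Keap1, its ubiquitin ligase partners, the small MAF genes, Bach1 and others) was called in either direction. Of 18 glutathione and thioredoxin genes tested, 1 rose and 1 fell. The riser was Gpx3, a secreted glutathione peroxidase, at 23.8 ± 8.85 FPKM in wild-type CCl4 livers and 3.89 ± 0.30 FPKM in oil livers (SD, n = 3 each, limma adjusted p = 0.00548), and it held in 20 of 20 alternatives. Prdx6, a peroxiredoxin, fell to 57.6 ± 12.8 FPKM in wild-type CCl4 livers, against 133 ± 10.97 FPKM in oil livers (adjusted p = 0.0459), a call that held in 11 of 20 alternatives (0.00206 to 0.136). Of 6 NADPH-supplying enzymes and 7 heme and iron genes, 0 were called. The 3 superoxide dismutases gave 1 fall, in mitochondrial Sod2, at 12.04 ± 1.51 FPKM in wild-type CCl4 livers and 22.6 ± 0.20 FPKM in oil livers (adjusted p = 0.0324, held in 14 of 20 alternatives).

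Of 21 conjugation and export genes linked to NRF2, 1 rose and 4 fell under CCl4. The riser was Abcc4, an export pump of the hepatocyte's blood-facing side, at 2.50 ± 0.36 FPKM in wild-type CCl4 livers and 0.675 ± 0.154 FPKM in oil livers (SD, n = 3 each, limma adjusted p = 0.00331). Abcc3, another export pump of that side, fell to 24.3 ± 11.4 FPKM in wild-type CCl4 livers, against 61.3 ± 1.22 FPKM in oil livers (adjusted p = 0.0121). Aox1, an aldehyde oxidase, fell to 6.01 ± 1.497 FPKM in wild-type CCl4 livers, against 14.9 ± 0.42 FPKM in oil livers (adjusted p = 0.00562). These 3 calls held in every alternative in which the gene was tested. The median log2 fold change of the list was −0.60, beside −0.08 for all genes tested.

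Cat fell together with other genes of the peroxisome, the organelle that makes hydrogen peroxide while shortening very long fatty acids. Of 11 other peroxisome genes reported here, 0 rose and 6 fell in wild-type CCl4 livers, with a median log2 fold change of −1.11 beside −0.08 for all genes tested. Pex11a, which acts in peroxisome division, was at 8.62 ± 1.85 FPKM in wild-type CCl4 livers and 21.9 ± 2.28 FPKM in oil livers (SD, n = 3 each, limma adjusted p = 0.00333, held in 20 of 20 alternatives). Abcd3, a peroxisomal fatty acid transporter, was at 49.6 ± 1.17 FPKM in wild-type CCl4 livers and 124 ± 30.2 FPKM in oil livers (adjusted p = 0.0244, held in 14 of 20 alternatives).

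**Figure D2:**
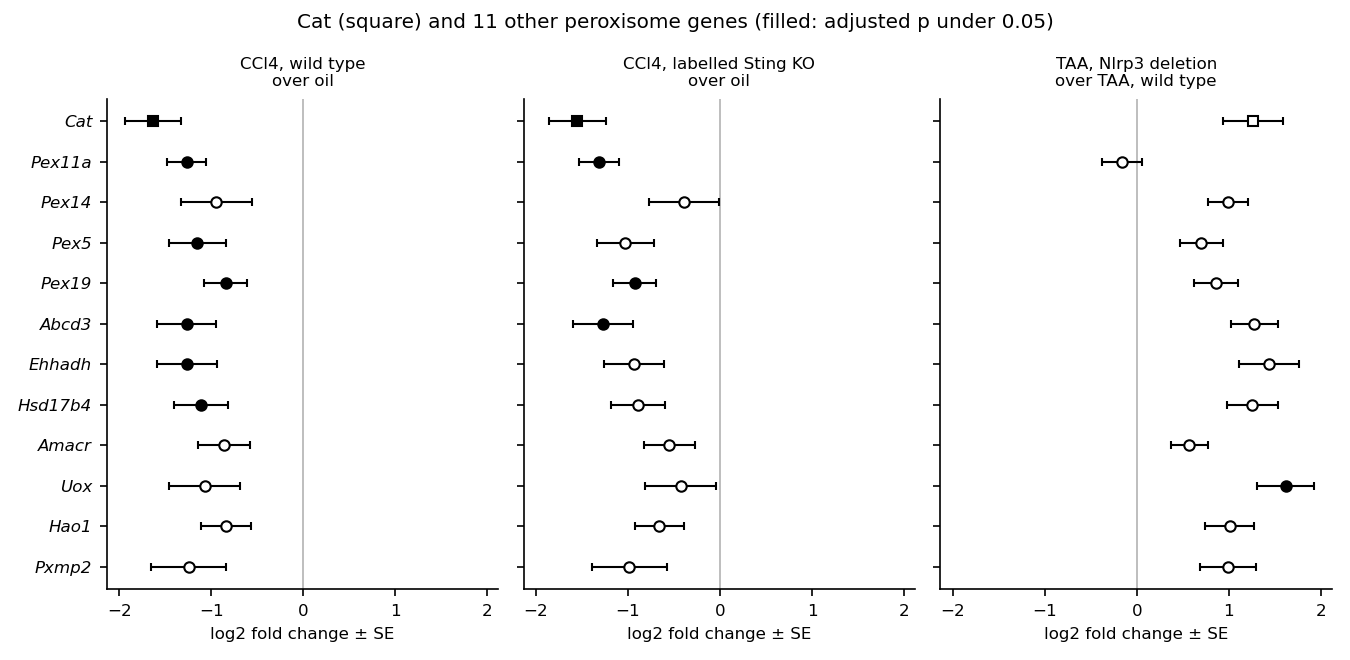
Log2 fold change ± SE (horizontal axes) of Cat and 11 other peroxisome genes in 3 comparisons, with filled symbols for an adjusted p under 0.05. Every gene lies below 0 in both CCl4 panels, where 6 and 3 of the 11 were called lower, and in the TAA panel 1 gene, Uox, was called higher.

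Cell type markers moved with these results. Of 14 macrophage markers, 12 were called higher and 0 lower in wild-type CCl4 livers, and their summed level was 1741 to 2656 FPKM per library, against 400 to 584 FPKM in oil livers. Of 9 stellate and myofibroblast markers tested, 7 were called higher, with a summed level over the list of 141 to 394 FPKM in wild-type CCl4 livers and 18.03 to 20.8 FPKM in oil livers. Of 9 hepatocyte markers, 0 were called higher and 3 lower, with a summed level of 37338 to 54618 FPKM in wild-type CCl4 livers and 49409 to 66474 FPKM in oil livers. Over all genes, FPKM summed to 322440 to 346269 in wild-type CCl4 livers and 449040 to 584415 in oil livers. The marker sums were not divided by these totals. Of 5 red cell markers tested, 0 were called higher and 1 lower. Summed over the list, they were at 271 to 1093 FPKM in wild-type CCl4 livers and 349 to 968 FPKM in oil livers. The part of these cells in the member values was not tested.

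In livers labelled Sting knockout and given CCl4, Hmox1 and Cat were again called against oil, with 1 of 9 tested members higher, 1 lower and 7 not called. These libraries share the oil controls with the wild-type comparison, so the 2 comparisons are not independent. Over all 11511 genes tested, 8.00% were called higher and 5.91% lower. Groups did not overlap for 6 of the 9 members (Nfe2l2, Hmox1 and Srxn1 higher, Gclc, Gclm and Cat lower), beside 37.6% of all genes tested.

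Hmox1 was at 45.1, 28.8 and 46.4 FPKM in the livers labelled Sting knockout, against 15.3, 15.2 and 9.95 FPKM in the oil livers. The 3 values were closer together than those of the wild-type CCl4 livers, and all lay above oil. The log2 fold change was 1.49 ± 0.41 (SE, limma adjusted p = 0.0348). The call held in 14 of 20 alternatives and ended with no filter (0.0953), without replicate 1 or 3 of the livers labelled Sting knockout (0.101 and 0.0950) and without oil replicate 1, 2 or 3 (0.0809, 0.0809 and 0.138). Without replicate 2, the library that stood apart, it was 0.0332.

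Cat was at 573, 546 and 427 FPKM in the livers labelled Sting knockout, against 1444, 1398 and 1665 FPKM in the oil livers. All 3 were again far below oil, with a log2 fold change of −1.55 ± 0.31 (SE, limma adjusted p = 0.00814). This call held in 20 of 20 alternatives (0.00236 to 0.0496), and without replicate 2 it was 0.00913. Gclm was at 32.01, 32.02 and 25.0 FPKM in the livers labelled Sting knockout and did not pass (log2 fold change −0.90 ± 0.28 against oil, adjusted p = 0.0566). Gclc, at 113, 67.4 and 80.8 FPKM, had a log2 fold change of −0.68 ± 0.27 (adjusted p = 0.131), and Srxn1, at 36.9, 27.7 and 29.5 FPKM, one of 0.72 ± 0.28 (adjusted p = 0.122).

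Of the remaining members in livers labelled Sting knockout, Nfe2l2 was at 24.2, 30.4 and 27.0 FPKM, each above the highest oil value of 22.1 FPKM, and did not pass (log2 fold change 0.55 ± 0.25, SE, limma adjusted p = 0.170). Nqo1 was at 5.86, 7.17 and 3.83 FPKM, Txnrd1 at 29.9, 17.5 and 22.1 FPKM and G6pdx at 8.15, 2.89 and 6.43 FPKM, and all 3 overlapped oil (adjusted p = 0.945, 0.432 and 0.270). Of 18 glutathione and thioredoxin genes, 1 rose, Gpx3, at 30.8 ± 16.2 FPKM in the livers labelled Sting knockout and 3.89 ± 0.30 FPKM in oil livers (adjusted p = 0.00355). Of 21 conjugation and export genes, 2 rose and 3 fell. Gsta1, a glutathione transferase, was at 44.4 ± 32.1 FPKM in the livers labelled Sting knockout and 3.96 ± 1.31 FPKM in oil livers (adjusted p = 0.0120, held in 18 of 20 alternatives). Its close paralog Gsta2 was at 18.01 ± 16.7 FPKM in the livers labelled Sting knockout and 26.1 ± 3.31 FPKM in oil livers (adjusted p = 0.382), and how counting divided reads between the pair was not tested. Abcc3 and Aox1 fell (adjusted p = 0.0119 and 0.0151), calls that held in 19 and 17 of 20 alternatives. Of 11 peroxisome genes 3 fell, Pex11a, Pex19, a peroxisome assembly factor, and Abcd3 (adjusted p = 0.00312, 0.0259 and 0.0267). The Pex11a call held in 20 of 20 alternatives, and the Pex19 and Abcd3 calls in 15 of 20 each, with adjusted p up to 0.0981 and 0.106. The regulators, NADPH enzymes, heme and iron genes and superoxide dismutases gave 0 calls.

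Cell type markers moved in this comparison too. Beside the Cat values, 0 of 9 hepatocyte markers were called higher and 4 lower, with a summed level of 39258 to 96623 FPKM in the livers labelled Sting knockout and 49409 to 66474 FPKM in oil livers. FPKM over all genes summed to 325463 to 571737 in the livers labelled Sting knockout and 449040 to 584415 in oil livers. The marker sums were not divided by these totals either. Beside the Hmox1 values, 2 of 5 red cell markers tested were called higher, with a summed level over the list of 1893 to 3051 FPKM in the livers labelled Sting knockout and 349 to 968 FPKM in oil livers. Of 14 macrophage markers 8 were called higher, with a summed level of 1466 to 2069 FPKM in the livers labelled Sting knockout and 400 to 584 FPKM in oil livers. Of 9 stellate and myofibroblast markers tested 6 were called higher, with a summed level over the list of 226 to 418 FPKM in the livers labelled Sting knockout and 18.03 to 20.8 FPKM in oil livers. Their part in the member values was not tested.

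The direct comparison of livers labelled Sting knockout with wild-type livers, both given CCl4, called 0 members. It asks whether loss of Sting changes these genes during injury, as far as the labels hold. The 10 members overlapped between the groups without exception. limma called 0 of 11511 genes, which is 0%, with 366 at an unadjusted p under 0.05, and edgeR on recovered reads also called 0, with 662 at an unadjusted p under 0.05. FPKM of the groups did not overlap for 0 of the 9 tested members, beside 5.13% of all genes tested. Hmox1 had the widest difference among the members, at 45.1, 28.8 and 46.4 FPKM in the livers labelled Sting knockout, against 119, 58.3 and 35.8 FPKM in the wild-type livers. The lowest wild-type value lay inside the range of the other group, and the log2 fold change was −0.67 ± 0.41 (SE, limma adjusted p = 0.761). Cat had a log2 fold change of 0.09 ± 0.31 (adjusted p = 0.926), Gclc of 0.19 ± 0.27 (adjusted p = 0.820), Srxn1 of −0.10 ± 0.28 (adjusted p = 0.908) and Nqo1 of −0.43 ± 0.44 (adjusted p = 0.774). None of the lists of related genes had a called member. Red cell markers summed to 1893 to 3051 FPKM in the livers labelled Sting knockout and to 271 to 1093 FPKM in wild-type CCl4 livers, beside the Hmox1 values, whose product acts on heme, and the part of the red cell RNA in them was not tested.

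**Figure D3:**
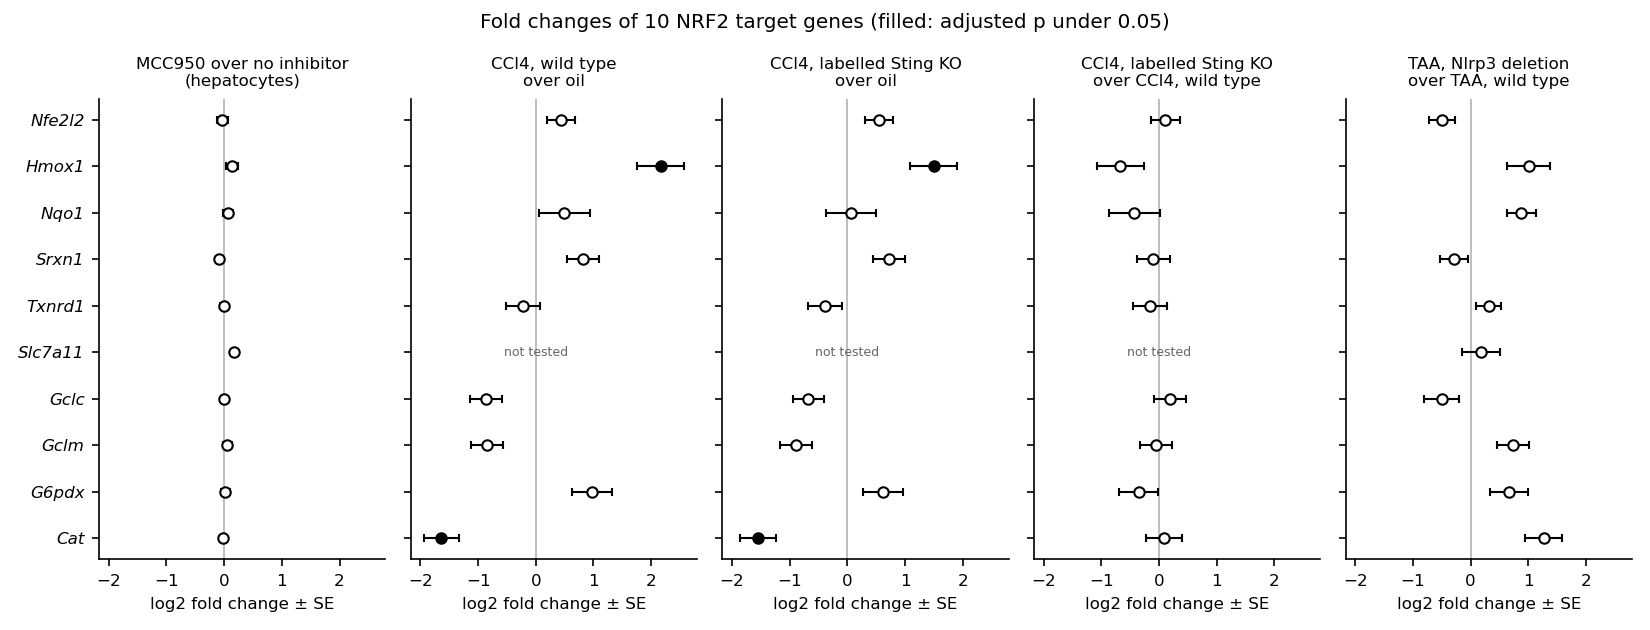
Log2 fold change ± SE (horizontal axes) of the 10 genes in the 5 comparisons, on the log2(FPKM + 1) scale for hepatocytes and CCl4 and from counts for TAA, with filled points for an adjusted p under 0.05. Hmox1 at 2.16 and 1.49 and Cat at −1.63 and −1.55 against oil are the filled points.

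In TAA livers with Nlrp3 deleted in hepatocytes, 0 of 10 members were called against wild-type TAA livers. This comparison asks whether hepatocyte Nlrp3 alters the injured liver. edgeR called 1.37% of 18619 genes higher and 0.360% lower. FPKM of the groups did not overlap for Nqo1, Gclm and Cat, 3 of 10 members and all higher with the deletion, beside 34.5% of all genes tested. The median log2 fold change of the members was 0.49, beside −0.04 for all genes tested. FPKM and the fitted fold changes are on different scales here. On log2(FPKM + 1) the median of all genes was itself 0.33 higher with the deletion, so the fold changes from counts are those given. The overlap was read on FPKM and carries that shift. For Gclm the nearest libraries of the groups were at 13.0 FPKM with the deletion and 11.8 FPKM in wild type.

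Cat was at 293, 573 and 752 FPKM in the livers with the deletion, against 198, 155 and 161 FPKM in wild-type TAA livers. All 3 deletion libraries were above all wild-type ones, and replicate 1 was the lowest of them. The log2 fold change was 1.26 ± 0.33 (SE, edgeR adjusted p = 0.0641). Nqo1 was at 9.81, 19.0 and 17.7 FPKM in the livers with the deletion, against 7.06, 5.68 and 6.59 FPKM in wild-type TAA livers, again with replicate 1 the lowest of its group (0.88 ± 0.25, adjusted p = 0.0742). Gclm was at 13.0, 23.3 and 30.5 FPKM in the livers with the deletion, against 11.8, 8.34 and 10.9 FPKM in wild-type TAA livers (0.73 ± 0.28, adjusted p = 0.14).

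For Hmox1, G6pdx and Txnrd1, replicate 1 of the deletion lay within the wild-type range and replicates 2 and 3 above it. Hmox1 was at 5.85, 13.5 and 16.4 FPKM in the livers with the deletion, against 6.75, 3.29 and 3.79 FPKM in wild-type TAA livers (log2 fold change 1.00 ± 0.37, SE, edgeR adjusted p = 0.129). G6pdx was at 3.12, 7.76 and 7.12 FPKM in the livers with the deletion, against 2.63, 2.45 and 3.53 FPKM in wild-type TAA livers (0.67 ± 0.32, adjusted p = 0.215). Txnrd1 was at 11.6, 19.2 and 17.8 FPKM in the livers with the deletion, against 12.2, 8.08 and 10.0 FPKM in wild-type TAA livers (0.31 ± 0.21, adjusted p = 0.366). None of the 3 passed.

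Gclc, Nfe2l2 and Srxn1 overlapped between the TAA groups more widely. Gclc was at 42.9, 92.6 and 93.2 FPKM in the livers with the deletion, against 111, 60.3 and 80.1 FPKM in wild-type TAA livers (log2 fold change −0.50 ± 0.30, SE, edgeR adjusted p = 0.304). Nfe2l2 was at 32.3, 28.4 and 21.3 FPKM in the livers with the deletion, against 34.7, 23.2 and 33.0 FPKM in wild-type TAA livers (−0.50 ± 0.22, adjusted p = 0.186). Srxn1 had a higher mean FPKM with the deletion (35.9 ± 11.6 against 33.6 ± 4.59, SD, n = 3 each) but a fitted log2 fold change below 0 (−0.29 ± 0.24, adjusted p = 0.445), which shows the difference between the scales. Slc7a11, like Hmox1, G6pdx and Txnrd1, had replicate 1 of the deletion within the wild-type range and replicates 2 and 3 above it. It was at 0.67, 1.78 and 1.49 FPKM in the livers with the deletion, against 1.09, 0.57 and 1.03 FPKM in wild-type TAA livers (0.18 ± 0.33, adjusted p = 0.744). These values rest on 604 to 1718 counts per library with the deletion and 422 to 853 counts in wild type.

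**Figure D4:**
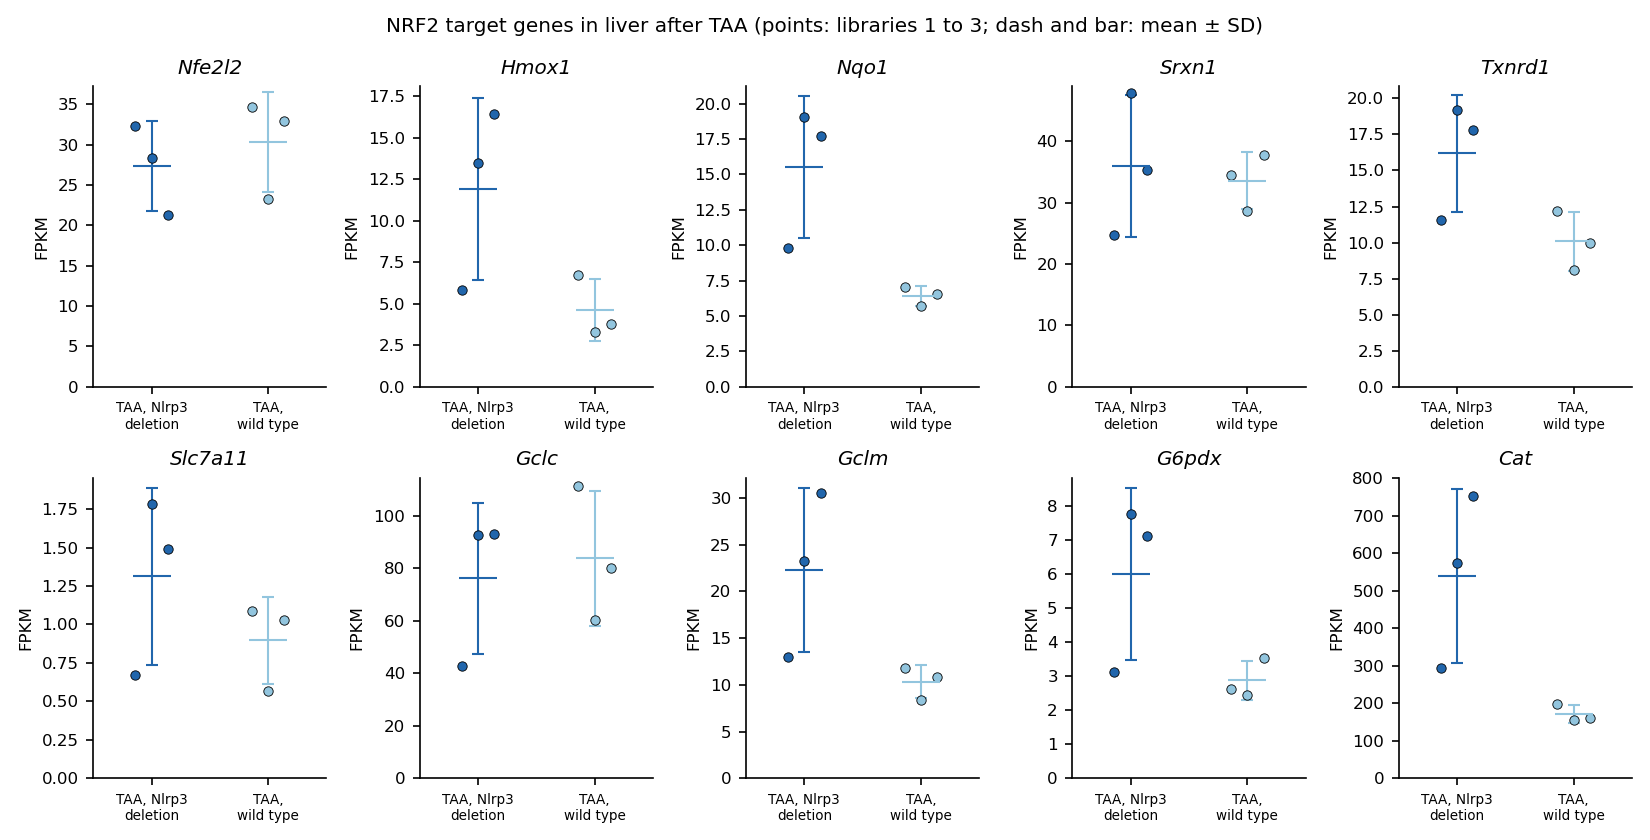
FPKM (vertical axes, linear, from 0) of the 10 genes in TAA livers with Nlrp3 deleted in hepatocytes and in wild-type TAA livers, 3 libraries each, with the mean and SD as a dash and bar. Replicate 1 of the deletion is the lowest of that group for 9 of the 10 genes, and for Nfe2l2 it is the highest.

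The count of called members in the TAA comparison rested on that library. Without replicate 1 of the deletion, 6 members were called higher (Nqo1, Gclm, Hmox1, Txnrd1, G6pdx and Cat) and 1 lower (Nfe2l2). The calls over all genes were then 7555 of 19889, where the fit with all libraries had 322 of 18619. Leaving out any of the other 5 libraries gave 0 called members. DESeq2 called Nqo1 and Cat (adjusted p = 0.0229 and 0.00315), beside 3640 of 18619 genes in all. limma on FPKM called the same 2 genes (0.0274 and 0.0222), beside 2642 of 11165 genes in all, 2426 of them higher.

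Hepatocyte markers stood higher in the livers with the deletion, where 4 of 9 were called higher and their summed level was 25729 to 31919 FPKM, against 9468 to 10408 FPKM in wild-type TAA livers. Macrophage markers summed to 316 to 774 FPKM in the livers with the deletion and to 224 to 370 FPKM in wild-type TAA livers, with 0 of 14 called. The part of these markers in the member values was not tested. Among the related genes, 2 of 20 glutathione and thioredoxin genes rose, Gpx1, the main intracellular glutathione peroxidase, at 727 ± 61.4 FPKM in the livers with the deletion and 249 ± 68.4 FPKM in wild-type TAA livers (SD, n = 3 each, edgeR adjusted p = 0.0487), and Prdx1, a cytosolic peroxiredoxin, at 337 ± 111 FPKM in the livers with the deletion and 97.8 ± 21.9 FPKM in wild-type TAA livers (adjusted p = 0.04995). Of 23 conjugation and export genes 1 rose, Gsta4, a transferase for lipid peroxidation products (59.3 ± 13.4 FPKM in the livers with the deletion and 18.7 ± 3.98 FPKM in wild-type TAA livers, adjusted p = 0.0487). Of 11 peroxisome genes 1 rose, Uox, urate oxidase (182 ± 62.8 FPKM in the livers with the deletion and 44.9 ± 5.33 FPKM in wild-type TAA livers, adjusted p = 0.04995). These 4 calls held in 7 of 14 alternatives each, with adjusted p up to 0.196. The regulators, NADPH enzymes, heme and iron genes and superoxide dismutases gave 0 calls.

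In hepatocytes given LPS and nigericin, MCC950 moved none of the 10 members past the test. The comparison asks what blocking NLRP3 changes in stimulated hepatocytes. limma called 0 of 9835 genes, which is 0%, with 1168 at an unadjusted p under 0.05, and edgeR on recovered reads also called 0, with 1535 at an unadjusted p under 0.05. FPKM of the groups did not overlap for 1 of 10 members, beside 19.7% of all genes tested. That member was Slc7a11, at 10.05, 9.65 and 9.57 FPKM with MCC950, against 7.94, 8.88 and 8.84 FPKM without it, a small difference with a log2 fold change of 0.17 (limma adjusted p = 0.394). It was the widest of the 10. Hmox1 was at 24.3, 30.9 and 24.9 FPKM with MCC950, against 24.3, 25.5 and 22.3 FPKM without it (0.14 ± 0.10, SE, adjusted p = 0.573). The lists of related genes had 0 called members.

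The cultures were tight enough to place the members in order, since FPKM is set per length. Srxn1 was the highest member by a wide margin, at 656, 711 and 704 FPKM with MCC950, against 700, 768 and 726 FPKM without it. Gclc followed at 144 ± 2.73 FPKM with MCC950 and 145 ± 1.92 FPKM without it (SD, n = 3 each). Cat (77.2 and 78.5 FPKM), Txnrd1 (53.6 and 53.9 FPKM) and Hmox1 (26.7 and 24.1 FPKM) came next, each pair of means with MCC950 and without it. Nfe2l2 (17.5 and 18 FPKM) and Gclm (16.4 and 15.8 FPKM) overlapped each other in both groups, and Nqo1 (11.99 and 11.3 FPKM), Slc7a11 (9.76 and 8.55 FPKM) and G6pdx (5.32 and 5.26 FPKM) were the lowest. The order was the same in both groups, and no other neighbours in it overlapped.

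**Figure D5:**
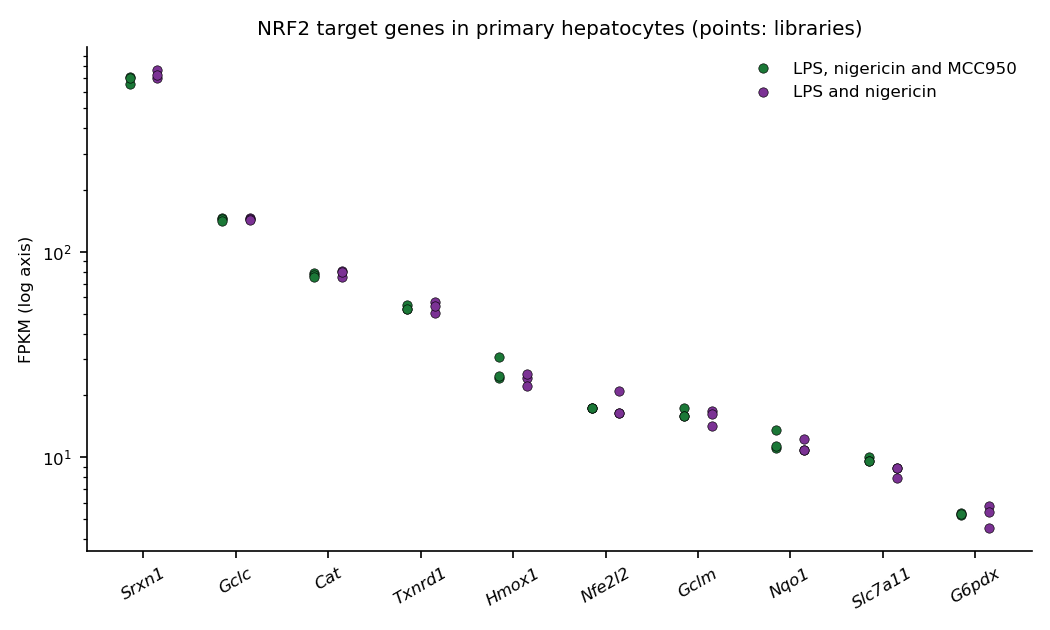
FPKM (vertical axis, logarithmic) of the 10 genes in hepatocytes given LPS, nigericin and MCC950 and in hepatocytes given LPS and nigericin, each point 1 library, genes sorted by their mean without MCC950. Srxn1 sits between 656 and 768 FPKM and the other 9 genes at 147 FPKM or lower, with the points of both groups side by side.

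Whole livers gave a different order, described within each table. Cat led in all 5 liver groups, at 515 ± 77.5 FPKM in livers labelled Sting knockout, 491 ± 113 FPKM in wild-type CCl4 livers, 1503 ± 143 FPKM in oil livers, 539 ± 231 FPKM in TAA livers with the deletion and 171 ± 23.2 FPKM in wild-type TAA livers (SD, n = 3 each). Gclc had rank 2 by its mean and Slc7a11 was last in each of these groups, and Gclc overlapped Srxn1 in the deletion group. By mean level Hmox1 held rank 3 of 10 in both CCl4 groups (40.1 FPKM in livers labelled Sting knockout and 70.9 FPKM in wild type). Its range there overlapped those of Srxn1, Gclm and Txnrd1. It also overlapped that of Gclc in wild type and that of Nfe2l2 in livers labelled Sting knockout. Hmox1 held rank 7 in oil livers (13.5 FPKM), where its range overlapped that of Nfe2l2. It held rank 8 in both TAA groups (11.9 FPKM with the deletion and 4.61 FPKM in wild type). Its range there overlapped those of Nqo1 and G6pdx and, with the deletion, also those of Gclm and Txnrd1.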

How the data were processed

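RNA was measured in 21 mouse libraries. RNA was extracted with TRIzol, per the labels' protocols; RNA selection and strand are not given in the sources used here, so reads of a gene and of any antisense partner cannot be told apart. Per the submitters' processing notes, HISAT2 2.2.1, featureCounts 1.5.0-p3 and mm10 were used. The authors deposited counts and FPKM for TAA livers, and FPKM with gene lengths for the other 2 tables, per the file headers. The sources used here do not say how the FPKM were scaled. In those 2 tables FPKM times length gave whole reads for 100% of values (within 0.05). The tables were normalized separately, and tests stay within a table.

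Groups came from the labels, and replicate numbers from the titles. Hepatocyte and CCl4 tables were tested with limma 3.58.1 (R 4.3.3) on log2(FPKM + 1) with a trend, keeping genes that averaged 1 FPKM or more; the 3 CCl4-table groups shared 1 fit. This scale understates the change of low genes. TAA counts were tested with edgeR 4.0.16 (quasi-likelihood, TMM, filterByExpr). Tests were two-sided, Benjamini-Hochberg adjusted over all genes tested, with calls at an adjusted p under 0.05. Values are FPKM, means ± SD or single libraries in replicate order 1, 2, 3. No libraries of a group agreed within sampling noise. The tests were tried on simulated data with 2 groups at a time, so without the shared fit, and no result here rests on that trial.

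The 10 genes, the related lists and the rule (all 10 genes; up to 3 called genes with the smallest p of each related list) were chosen with earlier results of these data known. 1 gene of the peroxisome list is not reported here. Of 149 listed genes, 149 matched in the hepatocyte and CCl4 tables and 148 in the TAA table. Alternatives were the pseudocount (0.1), the filter (none or a mean of 5 FPKM), TMM and quantile scaling, no trend, robust moderation, array weights, edgeR on recovered reads, a replicate block and leave-one-out fits. For the TAA counts they were RLE factors, DESeq2 1.42.0, limma-voom, limma on FPKM, no filter, robust moderation and leaving out mitochondrial, rRNA and pseudogene rows. Leaving out libraries of the third group of the CCl4 table, and fitting 2 groups alone, were chosen after seeing the data.

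Same-numbered libraries deviated together with a correlation over 0.1 in every pair for wild-type CCl4 against oil (0.225, 0.319 and 0.516) and for the livers labelled Sting knockout against wild-type CCl4 (0.189, 0.176 and 0.120). No label says what a number marks, so any pairing rests on these values only, which cannot settle it.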

Additional observations from a re-analysis of the deposited data

How the results depend on the processing

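Over 1221 alternative values of the named genes, 1117 kept their side of the threshold, 68 lost a call, 36 gained one and 0 changed the direction of a call. MCC950 and the direct comparison under CCl4 called 0 members in every alternative; over all genes no filter called 2 in each, and leaving out 1 library 0 to 1 in each (1 without MCC950 replicate 1, and 1 without wild-type CCl4 replicate 2).

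Wild-type CCl4 against oil called members higher and lower as follows: 1 and 1 in the main fit, 2 and 1 with no filter, 2 and 0 with quantile normalization, 1 and 3 with no trend, 3 and 3 with array weights, 3 and 3 with edgeR on recovered reads, 2 and 2 with the replicate block and 2 and 2 on the 2 groups alone. Leaving out 1 library gave 1 to 2 higher and 1 to 3 lower. Over all genes the main fit called 1766, a minimum of 5 FPKM 877, array weights 3780, edgeR 2790 and leaving out 1 library 936 to 2472 (974, 936 and 968 without oil replicates 1, 2 and 3). A minimum of 5 FPKM gave 363 higher and 514 lower and edgeR 1969 and 821, where the main fit gave 1058 and 708.

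Livers labelled Sting knockout against oil called 1 member higher in the main fit, 0 with no filter and 2 with edgeR on recovered reads, and 1 lower in the main fit and 2 with no trend, array weights or edgeR. Leaving out 1 library gave 0 to 1 higher and 1 to 1 lower. Over all genes the main fit called 1601, a minimum of 5 FPKM 829, edgeR 2436 and leaving out 1 library 781 to 1857 (1095 and 1050 without replicates 1 and 3 of the livers labelled Sting knockout, and 869, 870 and 781 without oil replicates 1, 2 and 3). A minimum of 5 FPKM gave 349 higher and 480 lower and edgeR 1702 and 734, where the main fit gave 921 and 680.

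In the Nlrp3 comparison members called higher were 0 in the main fit, 2 with DESeq2, 2 with limma on FPKM, 1 with no filter (Cat, adjusted p = 0.0382) and 0 to 6 leaving out 1 library, and members called lower were 0 to 1 leaving out 1 library. Over all genes the main fit called 322, RLE factors 1, DESeq2 3640, limma-voom 644, limma on FPKM 2642, no filter 1593, robust moderation 528, without mitochondrial, rRNA and pseudogene rows 697, the replicate block 2 and leaving out 1 library 0 to 7555 (7555, 2 and 3 without deletion replicates 1, 2 and 3, and 16, 0 and 0 without wild-type replicates 1, 2 and 3). limma on FPKM gave 2426 higher and 216 lower, where the main fit gave 255 and 67. Same-numbered libraries did not all correlate over 0.1 in this comparison (0.0884, −0.00062 and 0.00492). The same held for the MCC950 libraries (0.179, 0.218 and 0.0850) and for the livers labelled Sting knockout and oil (0.0223, 0.179 and 0.0929). These correlations cannot show whether libraries were paired. With the block the MCC950 comparison and the direct comparison under CCl4 called 0 members. The causes of these shifts were not tested.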

Other observations

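The ratio of Gclc to Gclm, the catalytic and modifier subunits of 1 enzyme, does not depend on a library's scaling, and it was looked at after the member values had been seen. It was 3.29, 3.98 and 3.05 in TAA livers with Nlrp3 deleted in hepatocytes, against 9.45, 7.23 and 7.37 in wild-type TAA livers. The groups did not overlap (3.44 ± 0.48 and 8.02 ± 1.24, SD, n = 3 each, exact two-sided permutation p = 0.1, the smallest that 3 against 3 can give). The library that stood apart among the single genes, replicate 1 of the deletion, had a ratio inside the range of its group. In the CCl4 table the ratio was 2.96 ± 0.75 in livers labelled Sting knockout, 2.47 ± 0.38 in wild-type CCl4 livers and 2.47 ± 0.41 in oil livers (exact two-sided permutation p = 0.4 for the livers labelled Sting knockout against wild-type CCl4 and against oil, and p = 1 for wild-type CCl4 against oil). In hepatocytes it was 8.78 ± 0.31 with MCC950 and 9.23 ± 0.96 without it (exact two-sided permutation p = 0.7). These were 5 comparisons, in a design that cannot reach 0.05, and ratios are compared within a table only.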
